A study of Homo sapiens with 36 samples.

Results

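The comparison described here set BxPC-3 cells given JQ1 for 4 h against BxPC-3 cells given the solvent DMSO for 4 h. BxPC-3 is an established human cell line from a pancreatic adenocarcinoma, labelled wild type. Both groups had 3 libraries, 6 of the 36 libraries of the series, and all genes that passed a filter on low counts were examined, 14988 of the 29744 genes in the table. The cells were grown in medium with fetal bovine serum, each compound was given at 3 µM, and RNA was read by polyA-selected sequencing. The count filter, the scaling and the estimate of spread behind every test used all 36 libraries. JQ1 and DMSO at 2 h, and TRAP-1-NegP, TRAP1, MS78 and TRAP-1-NegB at 4 h, had 3 libraries each. These groups are described only where JQ1 at 4 h was set beside them. The labels name these 4 other compounds without describing them, and TRAP1 is here a compound, not the gene of that name. Replicates carry numbers, with no word on whether they were separate cultures, so p-values measure the spread between these libraries, which may be technical. A single line was used, and nothing here extends to other cells.

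JQ1 is a small molecule that occupies the acetyl-lysine pockets of the bromodomains of the BET proteins, BRD2 and BRD3 among them. BET proteins read acetylated histones at promoters and enhancers and are known for helping the kinase complex P-TEFb to release paused RNA polymerase II. P-TEFb is held inactive by HEXIM1 and HEXIM2 in the 7SK ribonucleoprotein, and a rise of HEXIM1 mRNA is a widely used sign of BET inhibitor action. MYC is the best known gene that falls under BET inhibitors, mostly in blood cancers.

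The 6 libraries held 18063430 to 21429876 estimated counts. On the 2000 most variable genes, the first principal component carried 51.6% of the variance and separated the groups, with DMSO at -47.2 to -38.2 and JQ1 at 34.4 to 45.5. The second carried 15.7% and spread the replicates, with JQ1 at -33.5, 40.9 and -7.07 and DMSO at 15, -6.05 and -9.29. The epithelial markers KRT7, KRT8, KRT18, KRT19, EPCAM, CDH1, CLDN4 and MUC1 were all detected. Their summed level was 10100 to 11000 TPM (a level scaled by transcript length and depth) in DMSO and 9230 to 9890 TPM in JQ1. Markers of other cell types were mostly low, and the highest were S100A4, CD68, VIM and TAGLN, which epithelial lines can also express. Of 16 acinar and endocrine markers, 15 were in the table and 11 of them, INS, GCG and PNLIP among them, had no reads in any of the 6 libraries. PTPRC, MS4A1 and KDR of the blood and endothelial markers and PDGFRB and POSTN of the mesenchymal markers were also at 0. Of the 17 mesenchymal markers 11 had a mean under 1 TPM, and the summed level of all 17 was 116 to 152 TPM in DMSO and 115 to 128 TPM in JQ1.

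After 4 h of JQ1, 3642 genes were higher and 3684 lower than in DMSO, which is 24.3% and 24.6% of the genes tested and 48.9% together (edgeR quasi-likelihood test, Benjamini-Hochberg adjusted p under 0.05). At least 2-fold changes were fewer, 1005 genes higher (6.71%) and 1128 lower (7.53%). All 3 JQ1 libraries lay above all 3 DMSO libraries at 28.6% of the genes and below them at 28.2%. The median log2 change of all tested genes was -0.012. Libraries were scaled on the premise that most genes are unchanged. That scaling holds this median near 0, so it could not show a shift of all RNA. With 48.9% of genes called, a list of genes drawn at random would be near 24.3% higher and 24.6% lower. The lists below are read against these shares, which do not allow for level or base composition. In the lowest of 5 bins of DMSO level 9.1% of genes were higher and 3.8% lower, and in the highest 33.8% and 34.2%. The lists were chosen with earlier results of these data known. They are described by counts and medians and were not tested as sets.

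**Figure D1:**
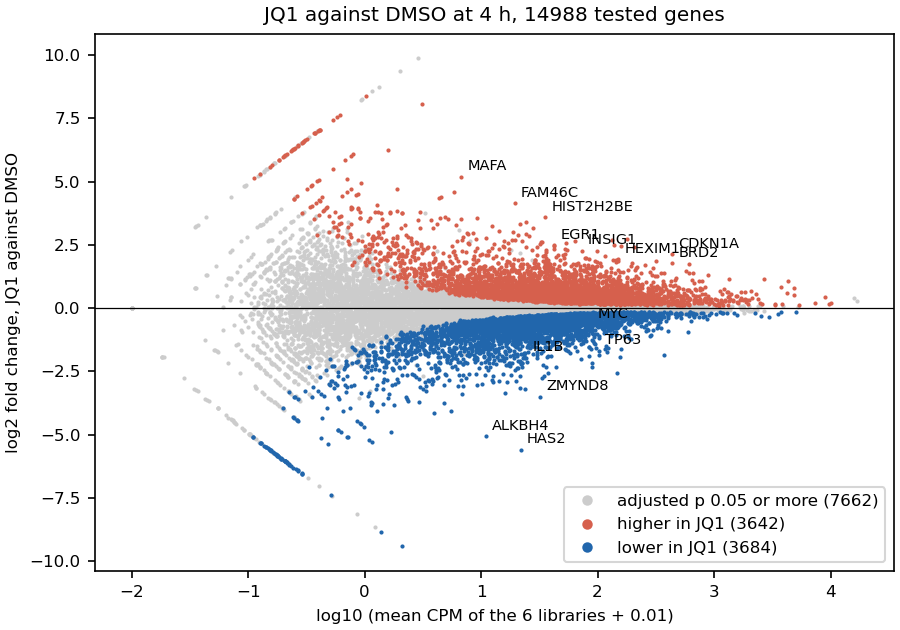
Log2 fold change of JQ1 against DMSO at 4 h (vertical axis) against the log10 of the mean level in CPM (reads scaled to library size) of the 6 libraries (horizontal axis) for 14988 genes, with 1 point per gene. Orange points (3642) were higher and blue points (3684) lower at an adjusted p under 0.05. Both were a smaller share of genes at low level. In the lowest of 5 bins of DMSO level 9.1% of genes were higher and 3.8% lower, and in the highest 33.8% and 34.2%.

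HEXIM1 and BRD2 rose in every JQ1 library. HEXIM1 (chr17:45148502-45152101, GRCh38), the P-TEFb inhibitor, stood at 61.6, 62.5 and 62.4 CPM (reads scaled to library size) in DMSO and at 232, 240 and 246 CPM in JQ1. The groups lay far apart, and the log2 change was 1.95 ± 0.083 (SE, n = 3 per group, adjusted p = 7.7e-27 by edgeR). BRD2 (chr6:32968660-32981505), itself a target of JQ1, stood at 199, 198 and 193 CPM in DMSO and at 686, 664 and 679 CPM in JQ1, a log2 change of 1.78 ± 0.049. Of 25 tested genes listed as raised by BET inhibitors in other cells, 20 rose and 1 fell. Their median log2 change was 1.78, against -0.012 for all genes. This list too was chosen with earlier results of these data known, so its count is a description and not independent evidence. FAM46C, a noncanonical poly(A) polymerase, rose by 4.16 on the log2 scale, SERPINI1, which encodes neuroserpin, by 3.56, GADD45B by 2.13, the polyamine acetyltransferase SAT1 by 1.90 and TXNIP, an inhibitor of thioredoxin, by 1.64. YPEL3 was the member that fell, from 3.11 to 6.98 CPM in DMSO to 1.70 to 2.66 CPM in JQ1.

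Histone genes were among the largest rises. Of 38 tested replication-dependent and linker histone genes, 21 rose and none fell, with a median log2 change of 2.14. At 2 h, 15 of the 38 were already higher and none lower, against 14.8% and 13.9% of all genes. HIST2H2BE, an H2B gene on chromosome 1, stood at 5.18, 6.29 and 4.88 CPM in DMSO and at 61.4, 65.9 and 69.3 CPM in JQ1, a log2 change of 3.59 ± 0.19. HIST1H2BD rose from 8.68, 8.80 and 11.2 CPM to 56.9, 48.5 and 48.7 CPM, and HIST1H2BK from 111, 111 and 106 CPM to 312, 305 and 305 CPM. All 3 JQ1 libraries were above all 3 DMSO libraries for each of these. The replication-independent linker histone gene H1F0 rose by 1.39 ± 0.052 and H1FX by 1.43 ± 0.074. SLBP, which binds the stem-loop that ends replication-dependent histone mRNAs in place of a polyA tail, rose by 1.28 ± 0.067 on the log2 scale. PolyA selection keeps only polyadenylated histone transcripts, so these values do not measure the bulk of histone mRNA. Histone genes are near copies of each other, and how Salmon split reads among them is uncertain.

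The promoters of HEXIM1 and of these 3 histone genes are shown because these genes rose and share a TATA box close to the start site. The shared box is part of the choice and is not a result. Each sequence is the 250 bases before the RefSeq start (GRCh38.p14), 5′ to 3′ on the gene's own strand, at chr17:45148225-45148474 (+) for HEXIM1, chr1:149886683-149886932 (-) for HIST2H2BE, chr6:26157871-26158120 (+) for HIST1H2BD and chr6:27146859-27147108 (-) for HIST1H2BK. Capitals mark TATAAA and CCAAT on either strand, the latter read as ATTGG on the other strand.
HEXIM1: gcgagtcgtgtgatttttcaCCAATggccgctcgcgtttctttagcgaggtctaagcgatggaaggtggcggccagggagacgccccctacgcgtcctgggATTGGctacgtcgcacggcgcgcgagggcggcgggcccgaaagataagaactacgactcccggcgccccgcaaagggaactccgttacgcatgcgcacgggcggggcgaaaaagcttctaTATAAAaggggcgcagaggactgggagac
HIST2H2BE: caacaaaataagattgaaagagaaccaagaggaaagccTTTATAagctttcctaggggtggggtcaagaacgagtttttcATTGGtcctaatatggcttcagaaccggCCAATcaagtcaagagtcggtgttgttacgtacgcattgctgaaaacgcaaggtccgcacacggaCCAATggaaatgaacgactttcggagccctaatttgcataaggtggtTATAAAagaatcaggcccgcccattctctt
HIST1H2BD: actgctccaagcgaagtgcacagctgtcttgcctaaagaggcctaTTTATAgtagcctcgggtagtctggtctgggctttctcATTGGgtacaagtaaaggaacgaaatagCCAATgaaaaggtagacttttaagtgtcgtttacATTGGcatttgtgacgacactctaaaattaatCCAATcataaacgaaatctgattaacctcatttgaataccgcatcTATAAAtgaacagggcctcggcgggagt
HIST1H2BK: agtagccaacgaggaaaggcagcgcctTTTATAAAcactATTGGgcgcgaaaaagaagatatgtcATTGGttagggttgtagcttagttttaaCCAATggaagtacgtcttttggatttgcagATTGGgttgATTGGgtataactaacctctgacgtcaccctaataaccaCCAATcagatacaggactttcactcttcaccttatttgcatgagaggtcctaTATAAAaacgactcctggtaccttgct
The TATAAA nearest to the start begins 29 bases before it in HEXIM1, 30 in HIST2H2BE, 28 in HIST1H2BD and 27 in HIST1H2BK. CCAAT matched 2 times in HEXIM1, 3 times in HIST2H2BE, 4 times in HIST1H2BD and 6 times in HIST1H2BK. TATAAA on either strand was present in 24 of the 34 tested histone genes with a promoter in the table (70.6%) and CCAAT in 27 (79.4%). Among the histone genes that rose, 14 of 19 (73.7%) held TATAAA and 16 of 19 (84.2%) held CCAAT. The shares over all 27305 promoters of the same length were 11.1% and 33.0%. These motifs are known features of histone promoters in general, and the shares were close in the histone genes that rose and in all that were tested.

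The 15 largest rises among genes with a mean of at least 5 CPM ran from 2.97 to 5.20 on the log2 scale. MAFA, the insulin gene activator of beta cells, stood at 0, 0.219 and 0.830 CPM in DMSO and at 13.4, 11.9 and 14.3 CPM in JQ1, a log2 change of 5.20 ± 0.52. TRIM36, a ubiquitin ligase, rose from 0.0493, 0.656 and 0.683 CPM to 9.95, 14.4 and 9.23 CPM, by 4.59 ± 0.52 on the log2 scale. Both were close to the detection floor in DMSO, which makes the size of the fold imprecise. VASN, a cell surface binder of TGF-beta, rose from 2.96, 4.54 and 4.10 CPM to 40.6, 36.1 and 40.1 CPM, and the Wnt receptor gene FZD7 from 3.5, 4.7 and 4.15 CPM to 34.8, 31.5 and 34.6 CPM. CTGF, a secreted matrix protein, stood at 0.888, 3.77 and 2.49 CPM in DMSO and at 21.3, 22.8 and 22.9 CPM in JQ1. BFSP1, a lens filament protein, rose by 3.30, FAM222A by 3.42 and ZCCHC24 by 3.17 on the log2 scale. KCNQ1OT1, a noncoding RNA antisense to KCNQ1, rose by 3.05 ± 0.25. TMED7-TICAM2, a read-through of 2 neighbouring genes, rose by 3.51 ± 0.79, and HIST2H2BC, annotated as a pseudogene, by 2.97 ± 0.33. For these last 3 the reads may belong in part to the overlapping or similar genes.

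The 15 largest falls ran from -5.59 to -2.88. HAS2, which makes the matrix polysaccharide hyaluronan, stood at 47.7, 41.3 and 39.2 CPM in DMSO and at 1.25, 0.664 and 0.748 CPM in JQ1. The fall of 48.2-fold (log2 change -5.59 ± 0.32) was the largest among genes at this level. ALKBH4, a demethylating dioxygenase, fell from 19.9, 21.8 and 21.9 CPM to 0.272, 0.971 and 0.648 CPM, a log2 change of -5.04 ± 0.36. ZMYND8, a chromatin reader with a bromodomain of its own, fell from 63.9, 58.8 and 55.6 CPM to 5.6, 3.93 and 6.24 CPM, a log2 change of -3.5 ± 0.13. The lactate receptor gene HCAR1 fell by 3.39, the helix-loop-helix factor TFAP4 by 3.14, the potassium channel KCNJ15 by 3.08 and the glycosyltransferase B3GNT7 by 2.88 on the log2 scale. GIMAP6 and GIMAP8, neighbouring GTPase genes on chromosome 7, fell by 3.19 and 3.07. GIMAP6 stood at 44.2, 43.0 and 41.0 CPM in DMSO and 4.46, 3.68 and 5.89 CPM in JQ1, with no overlap. ANKRD65 (-4.07), PALMD (-3.04), SH3TC1 (-2.98) and NIPAL4 (-2.93) were the other protein-coding genes of this set, with TRIM16L (-2.91), a near copy of TRIM16, and the pseudogene RPSAP52 (-3.33), for which reads may be shared with other genes.

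**Figure D2:**
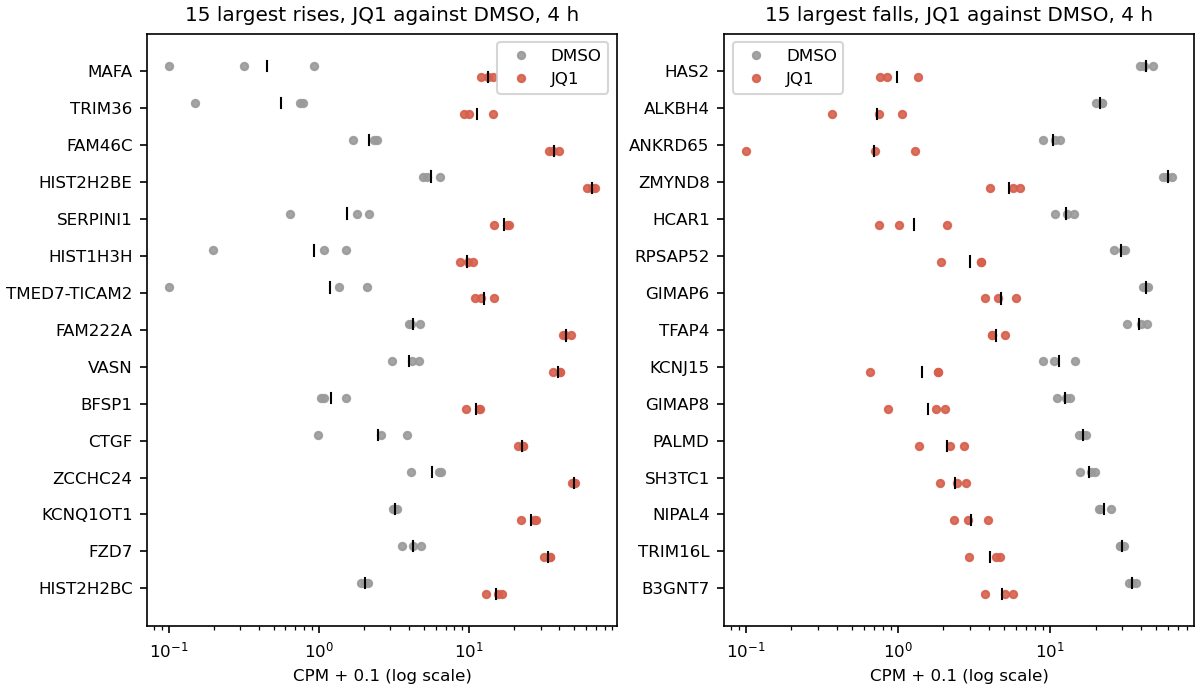
Levels of the 15 genes with the largest rises (left) and the 15 with the largest falls (right) in each of the 3 DMSO (grey) and 3 JQ1 (orange) libraries at 4 h, as CPM + 0.1 on a log axis, with black ticks at the group means. In all 30 genes the groups are separated, as the rule that chose them requires, and HAS2 and ALKBH4 lie at or below 1.25 CPM in every JQ1 library.

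Among the targets and partners of BET proteins the changes were unequal. Of 19 tested genes, 7 rose and 5 fell. BRD3 rose by 0.54 ± 0.12. Per transcript length, BRD2 was more abundant than BRD3, at 81.8 ± 2.78 TPM (SD, n = 3) in DMSO and 298.0 ± 2.34 TPM in JQ1, against 7.61 ± 1.26 and 10.1 ± 0.993 TPM for BRD3. CHD4 (0.31), BRD1 (0.52), the cohesin loader NIPBL (0.46), BRPF1 (0.36) and KAT2B (0.56) were the other rises. The acetyltransferase genes CREBBP (-0.84) and KAT2A (-0.74), the remodeller subunit genes BRD9 (-0.68) and BRD7 (-0.26), and JMJD6 (-0.96) fell. EP300 (0.19), ATAD5 (0.18), MED1 (0.08), WHSC1L1 (-0.04), TAF1 (-0.12) and BPTF (-0.14) were among those that did not pass the test. The calls of BRPF1, BRD7 and KAT2B were each lost in 2 of the 6 fits that left out 1 library, DMSO replicate 2 (edgeR adjusted p = 0.12, 0.086 and 0.14) and JQ1 replicate 2, 3 and 1 in turn (0.059, 0.064 and 0.13).

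In the 7SK and P-TEFb list, 8 of 15 genes rose and 1 fell. The P-TEFb cyclin gene CCNT1 rose from 43.3, 37.5 and 37.6 CPM to 81.2, 90.5 and 77.6 CPM (1.07 ± 0.10), and its kinase CDK9 by 0.38. MEPCE, the capping enzyme of 7SK RNA, rose by 0.50, CDK7 by 0.53, MNAT1 by 0.38, CDK13 by 0.28 and the splicing factor SRSF2 by 0.22. HEXIM2 went the other way from HEXIM1, from 3.16, 3.44 and 4.10 CPM to 0.544, 1.63 and 0.748 CPM, a log2 change of -1.86 ± 0.49. CCNT2 (0.29), CCNH (0.25), CCNK (0.12), CDK12 (-0.08), PPM1G (-0.08) and LARP7 (-0.23) did not pass. The call of CDK13 was lost in 4 of the 6 fits that left out 1 library (adjusted p up to 0.18, without DMSO replicate 2), that of MNAT1 without DMSO replicate 1 (0.069).

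Elongation factors moved both ways. Of 24 genes, 10 rose and 9 fell. The super elongation complex scaffolds AFF4 and AFF1 rose by 1.36 ± 0.12 and 1.10 ± 0.13, the elongation factor ELL2 by 1.19 ± 0.097, and CTR9, a subunit of the PAF complex, by 1.49 ± 0.10. NELFA, NELFB and NELFCD, subunits of the pausing factor NELF, fell by 1.62, 0.82 and 0.38 on the log2 scale, and the super elongation complex member MLLT1 by 0.65. NELFA stood at 30.4, 35.5 and 31.1 CPM in DMSO and 12, 8.63 and 10.9 CPM in JQ1, with no overlap.

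MYC stood at 111, 107 and 104 CPM in DMSO and at 68.8, 72.3 and 67.5 CPM in JQ1, without overlap. The log2 change of -0.63 ± 0.076 is a 1.55-fold fall. Among 14 genes of its network, 6 rose and 6 fell. MNT, a MAX partner that represses, fell by 1.60, MLX by 0.95, MGA by 0.61, MAX by 0.29 and ZBTB17 by 0.37, while the repressor MXD1 rose by 1.37, MYCL by 1.28, MLXIP by 0.90, MXD3 by 0.65 and MYCBP by 0.27. MLXIPL had no reads in DMSO and stood at 1.36, 0.715 and 0.349 CPM in JQ1. MXD4 (0.23) and MXI1 (-0.11) did not pass. The weak calls were unstable. Those of ZBTB17 and MXD3 were lost in 5 and 4 of the 6 fits that left out 1 library (adjusted p up to 0.15 without DMSO replicate 3 and 0.16 without DMSO replicate 2), that of MAX in 2 (up to 0.075 without JQ1 replicate 1), and that of MYCBP without DMSO replicate 2 (0.052). Of 39 ribosome biogenesis genes, many of them known MYC targets, 9 rose and 19 fell, with a median log2 change of -0.1999. PPAN (-1.59), RRS1 (-1.43), WDR74 (-0.97) and MYBBP1A (-0.84) led the falls, and NOP58 (0.70), NCL (0.68) and NPM1 (0.63), abundant nucleolar proteins, the rises. Of 83 ribosomal protein genes, 14 rose and 15 fell, a share below that of all genes in both directions.

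Immediate early genes were mostly higher. Of 36 genes, 30 rose and 1 fell, with a median log2 change of 1.16. EGR1 stood at 10.4, 12.9 and 15.1 CPM in DMSO and at 81.3, 65.5 and 69.5 CPM in JQ1, a log2 change of 2.49 ± 0.12. JUN rose by 1.42 ± 0.077, CYR61 by 1.43 ± 0.069, KLF4 by 1.34 ± 0.10 and the survival factor MCL1 by 1.08 ± 0.055. FOSL1, a Fos family member highly expressed in many carcinomas, rose by 0.21, and FOSL2 was the member that fell, by 0.46. Feedback genes of the MAPK pathway went both ways, with 10 of 25 higher and 8 lower. DUSP14 (1.76), ETV5 (1.58), EPHA2 (1.10) and DUSP5 (1.08) rose, and SPRY1 (-2.35), LIF (-2.19), DUSP4 (-0.86) and CCND1 (-0.47) fell. Of 17 genes of the EGFR family and its ligands 7 rose and 4 fell. The fall of EGFR was lost in 5 of the 6 fits that left out 1 library (edgeR adjusted p up to 0.3, without DMSO replicate 1). The ligands HBEGF and AREG rose by 1.26 and 1.07 and the EGFR inhibitor ERRFI1 by 1.58, whereas NRG1, a ligand of ERBB3, fell by 1.38.

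Inflammatory genes fell more often than they rose. Of 39 NF-kB feedback, chemokine and cytokine genes 18 fell and 6 rose, with a median log2 change of -0.36. IL1B stood at 39.1, 38 and 38.9 CPM in DMSO and at 8.70, 9.70 and 11.6 CPM in JQ1, a log2 change of -1.95 ± 0.11. The neutrophil chemokine CXCL1 fell from 7.30, 7.54 and 6.88 CPM to 0.598, 1.94 and 2.24 CPM, BCL3 by 2.15 ± 0.17 and the IL-1 receptor antagonist IL1RN by 1.23 on the log2 scale. IL11 (2.05 ± 0.44), PTGS2 (1.12), SOD2 (1.03) and NFKBIZ (0.80) rose. Of 37 interferon-stimulated genes 15 fell and 7 rose. XAF1 (-2.31) and IRF9 (-1.42), a subunit of the interferon-induced ISGF3 factor, fell, and IFIT2 rose by 1.98 ± 0.081.

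CDKN1A, the cyclin-dependent kinase inhibitor p21, stood at 161, 156 and 166 CPM in DMSO and at 730, 669 and 712 CPM in JQ1, a 4.37-fold rise (log2 change 2.13 ± 0.050, adjusted p = 3.1e-38 by edgeR). Of 47 genes listed as p53 targets 25 rose and 8 fell, with a median of 0.49. The list did not move as one. The decoy receptor gene TNFRSF10D (2.72), the ceramidase ACER2 (2.83), PMAIP1 (2.00), SESN2 (1.79) and PLK3 (1.63) rose, while MDM2, the p53 ubiquitin ligase, fell from 41.5, 34.3 and 40.4 CPM to 23.7, 23.8 and 24.7 CPM, PHLDA3 by 1.20 and AEN by 0.95. GDF15 showed a log2 difference of -0.32 (95% interval -0.65 to 0, adjusted p = 0.098). In the BCL2 family 4 of 19 rose and 8 fell. The call of BBC3 (0.94), a rise, was lost in 3 of the 6 fits that left out 1 library. Its edgeR adjusted p reached 0.11 without DMSO replicate 1. BCL2L11, the pro-apoptotic BIM, rose from 9.97, 10.1 and 8.35 CPM to 55.1, 50.8 and 56.7 CPM (2.52 ± 0.13), and BCL2L1, the anti-apoptotic BCL-XL, fell from 169, 178 and 182 CPM to 63.5, 62.1 and 61.9 CPM (-1.49 ± 0.066). BAK1 (-0.98), BIK (-0.97) and BOK (-0.72), which are pro-apoptotic, fell as well.

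Cell cycle genes were divided. Of 25 G1 cyclins, kinases and inhibitors 11 rose and 5 fell, and of 41 replication genes 16 rose and 16 fell. Of 42 G2/M genes 16 rose and 14 fell, and of 30 recombination and replication stress genes 10 rose and 5 fell. Over all tested genes 24.3% rose and 24.6% fell, and in the highest of 5 bins of DMSO level 33.8% and 34.2%. These lists were not compared with genes of equal level. The E-type cyclins CCNE2 (1.52) and CCNE1 (1.21) rose and the D-type cyclin CCND1 (-0.47) and CDK4 (-0.49) fell. The mitotic kinase PLK1 fell from 220, 240 and 229 CPM to 106, 108 and 105 CPM (-1.11 ± 0.070) and the mitotic activator FOXM1 by 0.78, whereas CDK1 rose by 0.84. The recombination gene RAD51D (-1.63) fell, and BRCA2 (0.85) and PALB2 (0.51) rose. When counts were corrected for the GC content and length of each gene, the recombination list gave 5 higher and 8 lower. The counts of the other lists under this correction are not given here.

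Genes of cholesterol and fatty acid synthesis and sterol sensing rose in part. Of 39 genes 21 rose and 6 fell. INSIG1, the sterol sensor that retains the SREBP complex, stood at 24.7, 26.9 and 23.3 CPM in DMSO and at 118, 121 and 123 CPM in JQ1 (2.28 ± 0.078). All 3 JQ1 libraries lay above all 3 DMSO libraries. TM7SF2, a sterol reductase, rose by 2.84, IDI1 by 1.93 and MYLIP, a ubiquitin ligase, by 2.31. INSIG2 (-0.91) and PMVK (-0.60) fell. Of 48 lysosome and autophagy genes 25 rose and 7 fell, with MAP1LC3B (1.42), ATG2A (1.46) and SQSTM1 (0.70) among the rises and the regulators MITF (-1.09) and TFE3 (-0.55) among the falls.

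Stress lists rose more than they fell. Of 25 genes of the endoplasmic reticulum unfolded protein response 21 rose, and 1, XBP1 (-0.24), fell, a call that was lost in 3 of the 6 fits that left out 1 library (adjusted p up to 0.22, without DMSO replicate 2). The chaperone HSPA5 rose from 848, 830 and 801 CPM to 1870, 1870 and 1850 CPM and the stress sensor ERN1 by 2.42 ± 0.15. Of 22 heat shock genes 15 rose and 4 fell, with HSPA1B (1.39), DNAJB1 (1.38) and HSP90AA1 (1.08) higher and HSPB8 (-1.39) lower. The fall of HSPA1L (-3.32) was lost in 2 of the 6 fits that left out 1 library. Its edgeR adjusted p reached 0.058 without JQ1 replicate 3. Of 34 hypoxia and glycolysis genes 20 rose and 3 fell. Among the falls, the call of ARNT was lost in 5 of the 6 fits that left out 1 library and that of ENO1 in 2, and without JQ1 replicate 2 both were lost (edgeR adjusted p = 0.34 and 0.058). Of 29 NRF2 targets 15 rose and 7 fell, and of 26 integrated stress response genes 13 rose and 6 fell. KEAP1, which targets NRF2 for degradation, fell from 128, 130 and 142 CPM to 34.6, 34.6 and 39.6 CPM (-1.88 ± 0.081), and GCLC, a glutathione synthesis enzyme, rose by 1.48. TRIB3 fell by 2.27 although ATF4, its known activator, rose by 0.68. The 24 snoRNA host genes (11 higher, 4 lower), 20 clock genes (9 and 8), 12 RGS genes (1 and 5) and 10 aryl hydrocarbon receptor genes (3 and 5) were smaller lists, with PER1 (1.77) and TIPARP (1.60) higher and RGS14 (-2.14) and CYP1B1 (-1.83) lower.

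Lineage and signalling genes also moved. TP63, the squamous master regulator, stood at 166, 152 and 148 CPM in DMSO and at 46.0, 46.3 and 53.8 CPM in JQ1, a 3.18-fold fall (log2 change -1.67 ± 0.077). Of 36 pancreatic and squamous transcription factors 12 rose and 9 fell, with FOXA2 (-1.20), PITX1 (-1.10) and GRHL2 (-0.93) lower, OVOL1 (1.39) and POU3F1 (1.69) higher and KLF5 at 0.07 ± 0.071 (adjusted p = 0.47). Of 39 epithelial and ductal markers 16 rose and 11 fell, CDH1 by 0.89 upward and KRT19 by 0.34 downward. Of 38 hyaluronan and matrix genes 20 rose and 6 fell. Beside HAS2, the protease gene PLAU fell by 1.19, and the hyaluronidase TMEM2 rose by 2.09 and the integrin ITGB1 by 0.85. In the TGF-beta, BMP and ID list 13 of 28 rose and 6 fell. BAMBI (2.78), a pseudoreceptor, ID3 (1.83) and SKI (1.72) rose, and the activin antagonist FST (-1.84 ± 0.058), the receptor TGFBR2 (-1.05) and NUAK1 (-1.72) fell. In the Notch list 12 of 25 rose and 5 fell, NOTCH1 by 1.89 and its feedback inhibitor NRARP by 2.71 upward and HEY1 by 1.93 downward. Of 26 YAP/TEAD targets 12 rose and 8 fell, so that CTGF (3.24) and CYR61 (1.43) rose while ANKRD1 (-1.60), AJUBA (-1.21) and F3 (-0.92) fell. Of 11 tested mesenchymal markers 3 rose and 1 fell. The fall, of PDGFRA, was lost in 5 of the 6 fits that left out 1 library (edgeR adjusted p up to 0.17, without JQ1 replicate 2), and the rise of COL1A1 without DMSO replicate 2 (0.058). LUM (0 in all DMSO libraries, 0.698 to 0.870 CPM in JQ1) and THY1 (at most 0.0976 CPM in DMSO, 0.948 to 1.63 CPM in JQ1) were among the rises. Of 8 blood and endothelial markers 1 fell (CD14, a call lost in 3 of the 6 fits that left out 1 library, with adjusted p up to 0.057 without JQ1 replicate 3), and of 2 acinar and endocrine markers tested none passed. Of 461 ZNF genes 95 rose and 107 fell, close to the share of all genes.

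**Figure D3:**
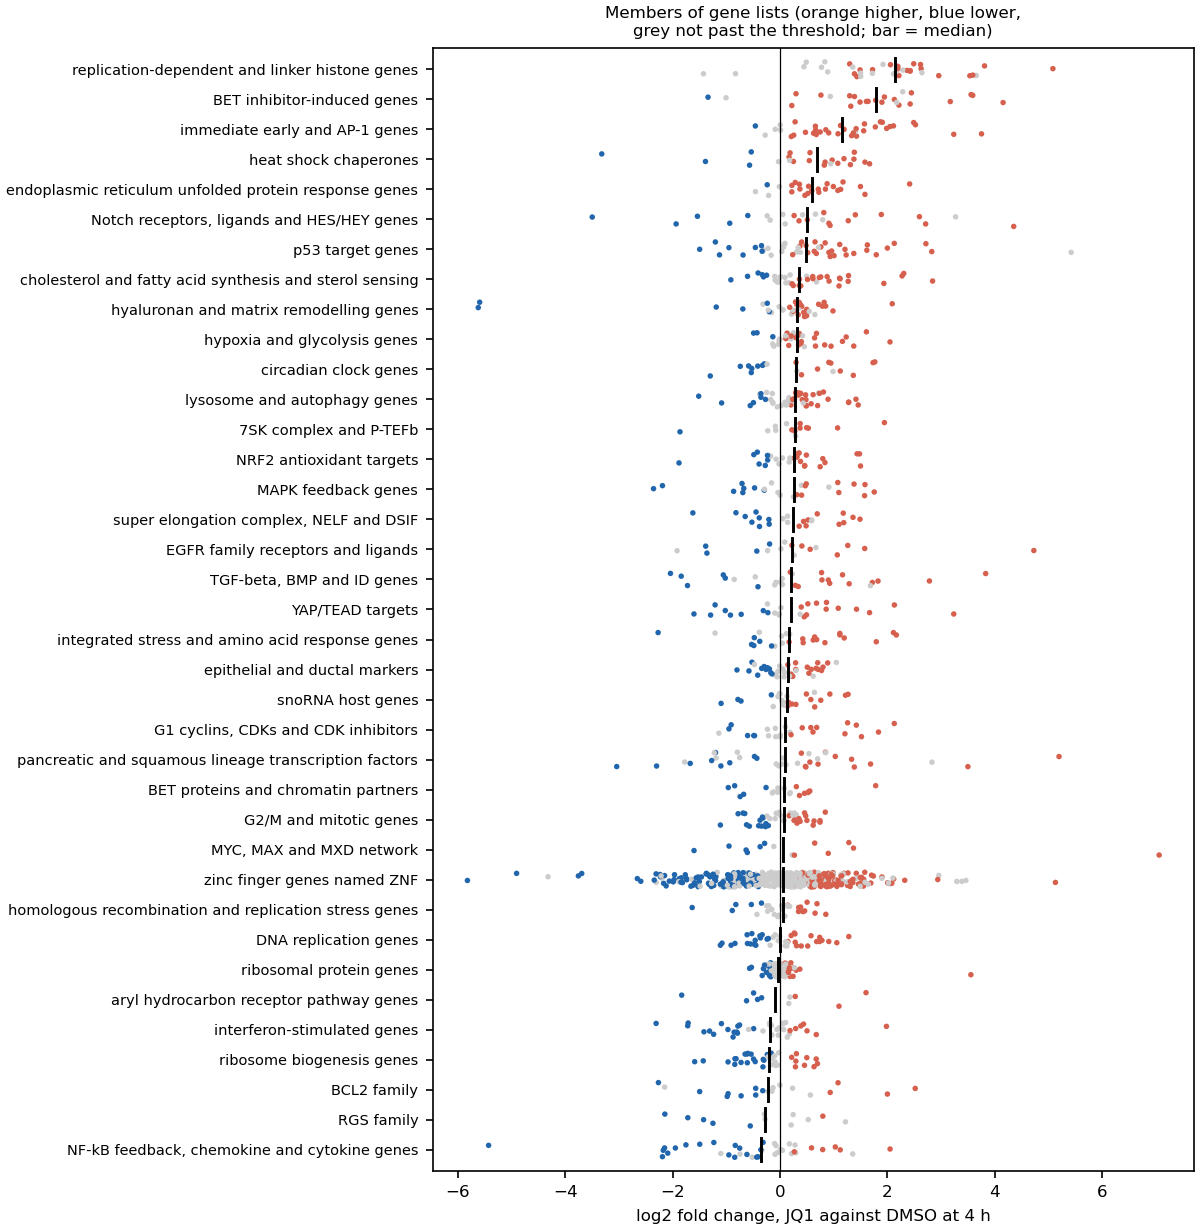
Log2 fold change of JQ1 against DMSO at 4 h (horizontal axis) for the tested members of 37 gene lists, without the 3 lists of markers of other cell types (vertical axis, ordered by median), with 1 point per gene, orange where higher, blue where lower and grey where the test was not passed, and a black bar at the median. The histone list (median 2.14), the BET inhibitor-induced list (1.78) and the immediate early list (1.16) lie farthest to the right, and the NF-kB list (-0.36) farthest to the left of the lists shown. All lists were chosen with earlier results of these data known.

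Changes differed with gene structure and base composition. GENCODE v29 gave properties for 13480 of the tested genes (89.9%). By GC content, gene span and level, genes were divided into 5 bins of about equal size. In the bin with the lowest GC content of the longest transcript, 38.8% of genes were higher and 13.3% lower (median log2 change 0.261), and in the bin with the highest, 15.1% were higher and 36.2% lower (median -0.212). The median was -0.166 in the bin of shortest gene span and 0.179 in the bin of longest, and genes with over 20 exons had a median of 0.158. By level in DMSO, at least 2-fold rises made up 9.07%, 10.38%, 7.1%, 4.67% and 2.3% of the bins from the lowest to the highest, and at least 2-fold falls 3.8%, 13.35%, 9.97%, 7.31% and 3.2%. The GC trend also varied between libraries of a group. The median log2 deviation of low-GC genes was -0.049, -0.143 and -0.142 in the DMSO libraries and 0.122, 0.143 and 0.081 in the JQ1 libraries. With counts corrected for GC content and length, 3666 genes were higher and 3566 lower, and 3069 of each direction were shared with the uncorrected calls. The part of base composition in the result was not tested further.

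The same comparison at 2 h contrasted none of the 4 h libraries, DMSO included, but shared the scaling and the estimate of spread with them. It gave 2225 genes higher (14.8%) and 2089 lower (13.9%), of which 287 (1.91%) and 373 (2.49%) changed by at least 2-fold. The groups did not overlap at 23.8% of the genes upward and 22.3% downward. Of the genes higher at 4 h, 1594 were also higher at 2 h, which is 43.8% of the 4 h set and 71.6% of the 2 h set, and 119 were lower at 2 h. Of the genes lower at 4 h, 1375 were also lower at 2 h (37.3% of the 4 h set and 65.8% of the 2 h set), and 104 were higher at 2 h. The difference between the effects was past the threshold for 1975 genes in the positive direction (13.2%) and 1925 in the negative (12.8%), and at least 2-fold for 397 (2.65%) and 404 (2.7%). HEXIM1 had reached 1.14 ± 0.082 at 2 h and gained a further 0.80 ± 0.12 by 4 h, and the log2 change of CDKN1A went from 1.02 to 2.13. MAFA had already reached 5.4 ± 0.56 at 2 h, with a difference of -0.21 (95% interval -1.78 to 1.36), and MYC had a change of -0.75 at 2 h and a difference of 0.12 (95% interval -0.10 to 0.34). EGR1 had a log2 change of 3.21 at 2 h and of 2.49 at 4 h, a difference of -0.72 (95% interval -1.04 to -0.41). ZMYND8 stood at 36.9, 35.0 and 37.4 CPM in JQ1 at 2 h and fell to the 3.93 to 6.24 CPM given above by 4 h, a difference of -2.80 ± 0.17. TP63 differed by -1.31 ± 0.11 and BANP, a nuclear matrix and CpG-binding protein, by -2.56 ± 0.30.

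The genes named next were chosen for the size of their difference between times. GLI2, a transcription factor of the Hedgehog pathway, stood at 8.59, 8.73 and 8.57 CPM in JQ1 and 5.77, 6.38 and 6.28 CPM in DMSO at 2 h, and at 0.381, 1.89 and 1.85 CPM in JQ1 and 8.29, 9.18 and 8 CPM in DMSO at 4 h. Among genes past the threshold with a mean of at least 5 CPM, it had the largest negative difference between times, -3.10 ± 0.42. CPEB4, which binds mRNA tails, ranged from 9.91 to 15.2 CPM in JQ1 against 9.41 to 11.2 CPM in DMSO at 2 h, and from 22.9 to 25.3 CPM against 3.51 to 6.12 CPM at 4 h (2.16 ± 0.28). ACER2 (2.21) and PAG1 (2.04) followed. DMSO levels of CPEB4, ACER2 and PAG1 were lower at 4 h than at 2 h, for PAG1 at 5.3 to 7.37 CPM against 9.95 to 12.6 CPM, and the part of this in the differences was not tested. ZBED6 (2.60), whose reading frame lies within ZC3H11A and shares its reads, was lower at 2 h and higher at 4 h, and ZNF551 (2.08) was lower at 2 h. DMSO levels of ZBED6 also differed between times, at 6.45, 7.14 and 9.35 CPM at 2 h and 2.12, 2.02 and 2.29 CPM at 4 h. ZNF genes fell at 2 h in 127 of 461 cases and rose in 30, and at 4 h in 107 and 95. The 3 lists with the largest medians at 4 h had positive medians at 2 h as well, 1.20 for histones, 1.09 for BET inhibitor-induced genes and 1.01 for immediate early genes.

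**Figure D4:**
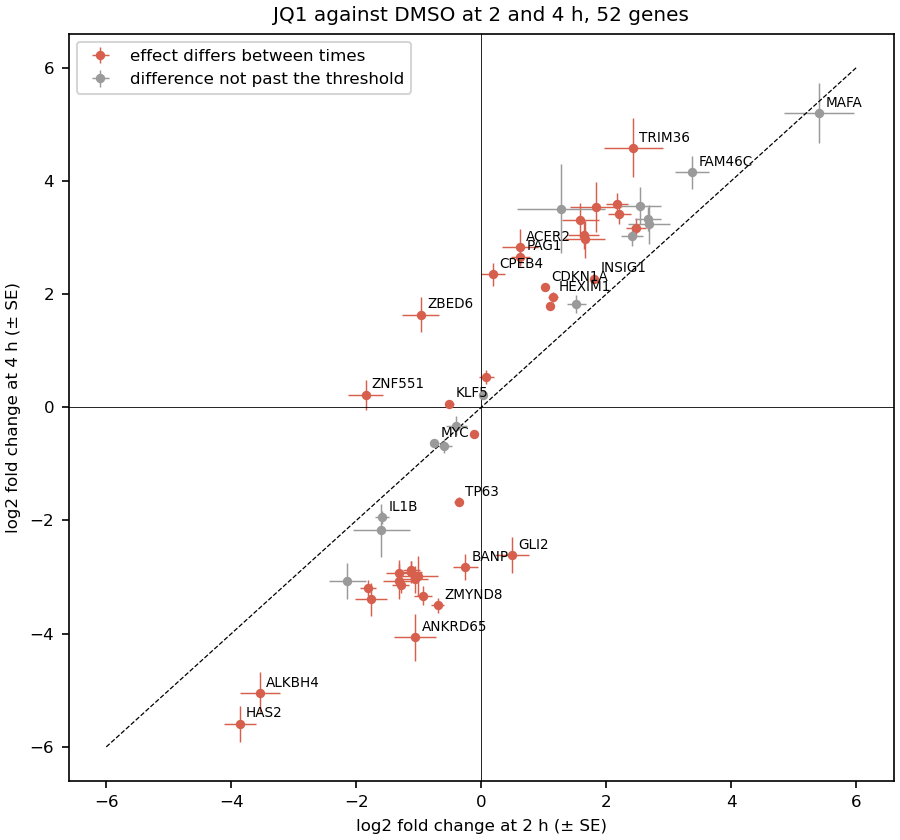
Log2 fold change of JQ1 against DMSO at 4 h (vertical axis) against that at 2 h (horizontal axis) for 52 genes, with SE bars and a dashed line of equal change. Orange points, 37 of 52, had an effect that differed between the times at an adjusted p under 0.05, 10 of the genes having been chosen for that difference, and most of the falls lie below the dashed line.

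JQ1 was next set directly against TRAP-1-NegP and TRAP1, in which BRD2 stood at 627 ± 12.4 and 672 ± 21.2 CPM (SD, n = 3), at the same dose and time. These are 2 pairs, tested over all genes, and the labels describe no structure. JQ1 and TRAP-1-NegP differed at 1926 genes in each direction (12.9% each), but by at least 2-fold at 107 genes higher in JQ1 (0.714%) and 87 lower (0.58%). All 3 JQ1 libraries lay above the TRAP-1-NegP libraries at 20.4% of the genes and below them at 18.4%. With counts corrected for GC content and length, 1254 genes were higher and 1379 lower in JQ1. Both direct comparisons share the JQ1 libraries with the comparison against DMSO. HEXIM1 was 0.33 ± 0.079 higher in JQ1 on the log2 scale (means of 240.0 and 191 CPM). BRD2 differed by 0.11 (95% interval 0.02 to 0.20, adjusted p = 0.077), CDKN1A by 0.05 (-0.04 to 0.15) and MYC by -0.08 (-0.23 to 0.07).

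The largest differences were in single genes and in sterol genes. KCNQ1OT1 stood at 27.7, 27 and 22.1 CPM in JQ1 and at 7.85 ± 1.18 CPM (SD, n = 3) in TRAP-1-NegP, a log2 difference of 1.71 ± 0.24. CEP85L (1.39), KBTBD8 (1.36), C2orf69 (1.16) and MYLIP (1.12) followed. INSIG1 was lower in JQ1, at 118, 121 and 123 CPM against 375 ± 17.8 CPM in TRAP-1-NegP (-1.64 ± 0.071), and RPSAP52 (-1.54), ZMYND8 (-1.23) and LRRC61 (-1.17) were among the next. Of the 39 sterol and fatty acid genes 21 were lower in JQ1 than in TRAP-1-NegP and 3 higher. MS78 and TRAP-1-NegB, in which HEXIM1 stood at 64.1 ± 7.44 and 68.6 ± 6.01 CPM, near the DMSO level, had INSIG1 at 145 ± 4.07 and 82.2 ± 4.72 CPM. Of 83 ribosomal protein genes 67 were lower in JQ1 than in TRAP-1-NegP, with a median log2 difference of -0.30. List counts of both direct comparisons are without the correction for GC content and length, and the corrected counts are not given here.

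TRAP1 and JQ1 differed at 1877 genes higher in TRAP1 (12.5%) and 2236 lower (14.9%). Of these, 184 (1.23%) and 235 (1.57%) differed by at least 2-fold, and the libraries did not overlap at 16.3% of the genes upward and 19.9% downward. Of 47 p53 targets 28 were higher in TRAP1 and 1 lower. GDF15 stood at 11.6, 10.8 and 12.5 CPM in JQ1 and at 266 ± 21.9 CPM in TRAP1, a log2 difference of 4.51 ± 0.16. CDKN1A stood at 7760 ± 228 CPM in TRAP1, 11-fold above JQ1, and MDM2 was higher by 1.63 ± 0.12. TP53INP1 (3.84), NHLH2 (4.23) and NEURL2 (2.82) were the other leading rises, and ZNF367 (-1.93), FNTB (-1.74), ATAD5 (-1.62), FBXO5 (-1.56) and E2F2 (-1.48) the leading falls. The call of FNTB was lost without TRAP1 replicate 1 (adjusted p = 0.062), TRAP1 replicate 2 (0.077) or JQ1 replicate 2 (0.1), and was 0.44 in a fit of the groups compared alone. Of 42 G2/M genes 29 were lower in TRAP1 than in JQ1 and 1 higher, and of 83 ribosomal protein genes 80 were higher. TRAP1 replicate 1 stood apart from its group, and without it and a library of MS78 at 2 h that also stood apart, 79 ribosomal protein genes were higher.

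HEXIM1, BRD2, TP63 and HAS2 did not pass the test between TRAP1 and JQ1. HEXIM1 differed by 0.06 (95% interval -0.09 to 0.22), BRD2 by -0.01 (-0.10 to 0.09), TP63 by -0.02 (-0.18 to 0.14) and HAS2 by 0.42 (-0.58 to 1.42). IL1B set the compounds apart, at 8.70 to 11.6 CPM in JQ1, 17.6 ± 1.48 CPM in TRAP-1-NegP and 66.9 ± 6.23 CPM in TRAP1, above the DMSO level of 38 to 39.1 CPM. MS78 (57.2 ± 3.61 CPM) and TRAP-1-NegB (73.5 ± 5.17 CPM) also had more IL1B than DMSO by these means.

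**Figure D5:**
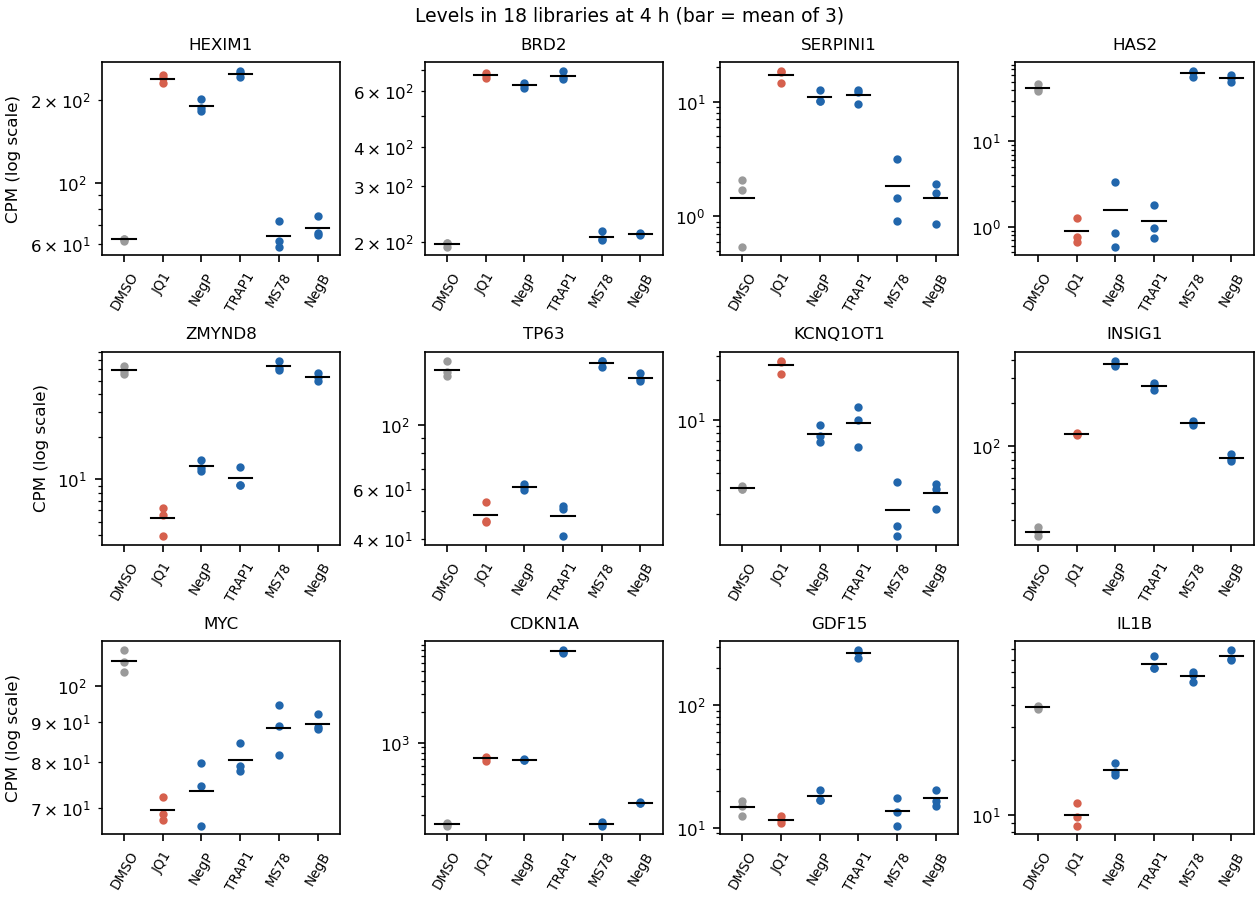
Levels of 12 genes in CPM (vertical axes, log scale) in the 18 libraries at 4 h, 3 per compound, with bars at the means, JQ1 in orange, DMSO in grey and the other compounds in blue (NegP and NegB stand for TRAP-1-NegP and TRAP-1-NegB). HEXIM1, BRD2, HAS2, ZMYND8 and TP63 in MS78 and TRAP-1-NegB lie near DMSO, INSIG1 is above DMSO under all 5 compounds, and CDKN1A and GDF15 are highest in TRAP1.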

How the data were processed

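RNA of 36 BxPC-3 libraries was measured by polyA-selected, paired-end sequencing with 150-base reads. The authors quantified genes with Salmon 1.10.3 through nf-core/rnaseq 3.18.0 on hg38, per the submitters' processing notes, and neither annotation release nor strandedness was given in the sources used here. Deposited tables hold Salmon estimated counts per gene, not scaled for depth, length-scaled estimated counts, and TPM, all as the authors made them. The TPM values were used for levels per transcript length and for marker sums.

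Rounded estimated counts went into edgeR 4.0.16 under R 4.3.3. filterByExpr (minimum count 10, 12 groups) left 14988 of 29744 genes, 61 names being duplicated. After TMM scaling, a quasi-likelihood model with 1 mean per group was fitted to all 36 libraries, and two-sided p-values were Benjamini-Hochberg adjusted over all tested genes within each of 5 comparisons. CPM use TMM-adjusted library sizes. SE holds counting error and replicate spread together, and the common biological coefficient of variation was 0.135. Totals ran from 15288688 to 26608325 estimated counts.

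The members and the 40 gene lists were chosen with earlier results of these data known. Named genes were the 15 largest rises and falls (adjusted p under 0.05, mean of at least 5 CPM, groups not overlapping), up to 4 list members per direction by adjusted p, all members of the BET, 7SK and MYC lists, a panel of 20 genes, and 5 per direction of the other comparisons. Some genes that the rule names are not reported here, and list members that are not singled out are in the counts. Alternatives were DESeq2 1.42.0 (Wald test or size factors in edgeR), no filter, a stricter filter, length-scaled counts, a replicate block, only the groups compared, and each library left out. Chosen after seeing the data were a correction for GC content and length, a fit without TRAP1 at 4 h replicate 1 and MS78 at 2 h replicate 1, and an unadjusted p. Tested on simulated data for JQ1 against DMSO at 4 h (14579 genes, 200 changed), edgeR found 55% of the 1.5-fold and 93% of the 3-fold changes and made 5 calls among unchanged genes. Gene positions are from GENCODE v29 and promoters from RefSeq. Python 3.11.15 and matplotlib 3.10.9 made the figures.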

Additional observations from a re-analysis of the deposited data

Results flagged for a closer look

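The effect of JQ1 differed between 4 h and 2 h for 37 of the 52 genes reported that were named by size, panel or time (edgeR quasi-likelihood test of the difference of the effects, adjusted p under 0.05), with a positive difference at 19 and a negative one at 18. Over all tested genes the share was 26%. The genes were chosen by size at 4 h, from a panel or, for 10 of them, by the size of this difference, so the count is a description and is not evidence on how many genes differ. All values here are log2 differences, effect at 4 h minus effect at 2 h. Groups of 3 are too small for a test of single outlying libraries.

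Genes that rose further by 4 h included the ubiquitin ligase TRIM36 (2.15), HIST1H3H (1.71), HIST2H2BE (1.42), HIST2H2BC (1.31), the lens gene BFSP1 (1.72), KCNQ1OT1 (1.41), FAM222A (1.21) and ZCCHC24 (0.69). HEXIM1 (0.80), BRD2 (0.69) and CDKN1A (1.11) also rose further. BRD3 (0.46) was past the threshold at 4 h and not at 2 h. The sterol gene INSIG1 (0.47) gained as well. KLF5 (0.57) was lower at 2 h only. ZBED6 (2.60), ACER2 (2.21), CPEB4 (2.16), ZNF551 (2.08) and PAG1 (2.04) were chosen for their differences.

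GLI2 (-3.10), ANKRD65 (-3.01), ZMYND8 (-2.80), BANP (-2.56) and RPSAP52 (-2.40) were likewise chosen for their differences. GLI2 and BANP were past the threshold at 4 h and not at 2 h, and the other 3 fell further. Among the largest falls at 4 h, SH3TC1 (-1.97), PALMD (-1.97), TFAP4 (-1.84), TRIM16L (-1.78), KCNJ15 (-1.77), B3GNT7 (-1.76), the hyaluronan synthase HAS2 (-1.73), the lactate receptor HCAR1 (-1.63), NIPAL4 (-1.62), ALKBH4 (-1.50) and GIMAP6 (-1.38) had also fallen at 2 h and fell further. TP63 had a difference of -1.31 and CCND1, not past the threshold at 2 h, of -0.36.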

How the results depend on the processing

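For JQ1 against DMSO at 4 h the alternatives with adjusted p gave 3441 to 3858 genes higher and 3566 to 4045 lower, an unadjusted p under 0.05 gave 3994 and 4040, and leaving out 1 library gave 3290 to 3463 higher and 3292 to 3466 lower. DESeq2 called 3762 and 3809. No call changed direction except 5 under the correction for GC content and length, for which the cause was not tested. Under the same correction 1254 genes were higher in JQ1 than in TRAP-1-NegP, against 1926, and the cause was not tested. With the replicate block the counts were 3623 and 3665. The numbers were not taken to pair libraries, since same-numbered libraries had correlations of -0.0207, -0.00961 and 0.0644 between their deviations and not every library correlated best with its own number. Counts of list members were not all stable. Among members counted but not named above, the calls of RFNG and HYAL3 were lost in 2 of the 6 fits that left out 1 library. Those of MVK, MMP14 and GNB2L1 were lost in 1. Over all alternatives and the comparisons examined, 52 such counts moved by more than 1.5-fold or from 0. Small values changed sign. With length-scaled counts CDK12 had a log2 change of 0.02297. With the GC and length correction the values were -0.1492 for ATAD5, -0.0438 for CCNT2, 0.02021 for ENO1, -0.03308 for MED1 and 0.006384 for MMP14. Over the fits that left out 1 library, MXI1 ran from -0.1994 to 0.0317 (above 0 without DMSO replicate 3), and, each crossing 0 without DMSO replicate 1, CDK12 from -0.1424 to 0.02127, TAF1 from -0.2269 to 0.0239, WHSC1L1 from -0.05966 to 0.008615, the median of the G1 list from -0.02003 to 0.1786 and that of the mesenchymal markers from -0.01584 to 0.2266. The causes were not tested. On simulated data with 200 of 14579 genes changed, edgeR recovered 55% of 1.5-fold changes. The threshold on adjusted p depends on the share of genes changed. In the data 48.9% were called, so this recovery does not carry over to them. Small changes can be missed there as well, at a rate that was not measured.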
